A study of Mus musculus with 8 samples.

Results

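The comparison described here set zygotene against leptotene spermatocytes within Bend2 knockout mice, to show which stage differences are seen in cells without Bend2. It used the 2 knockout (KO) leptotene libraries and the 2 KO zygotene libraries of an RNA-seq series of 8. The wild-type (WT) leptotene and WT zygotene libraries, 2 each, stood beside them as the reference for the same step. Of 27578 gene names in the deposited files, the 13102 with a TPM (a transcript's length-corrected share of a library) of at least 1 in at least 2 of the 4 KO libraries were tested.

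All 8 libraries came from C57BL/6 mice of 2 months, and from spermatocytes separated by stage in a cell sorter. The groups were Bend2 KO leptotene, Bend2 KO zygotene, Bend2 WT leptotene and Bend2 WT zygotene, and the labels name no other allele or agent. The labels do not describe the deletion, and they do not tie libraries to animals. The p-values below therefore measure only the spread between these libraries, which may be technical.

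Leptotene and zygotene are the first stages of meiotic prophase. In leptotene, cohesin and axis proteins organise the replicated chromosomes into loops and SPO11 makes programmed double-strand breaks. In zygotene, the DMC1 recombinase carries out the search for the homologous chromosome, and the synaptonemal complex starts to join the homologues. BEND2 is a germ-cell protein with BEN domains, a fold found in DNA-binding chromatin regulators. Premeiotic S phase comes just before leptotene, so transcripts of the replication-dependent histone genes mark cells close to that S phase.

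The deposited files list assembled transcripts, and only part of them carry a reference gene name. Named transcripts held 59.0% to 72.3% of the TPM of a library. Levels were therefore given in 2 ways, as the sum of named transcripts (named values) and with each unnamed transcript added to the annotated gene that covered at least 50% of its exonic length on the same strand (overlap values, 73.8% to 86.3% of the TPM). All levels are TPM after scaling between libraries, and log2 fold changes set KO zygotene over KO leptotene after 1 is added to each scaled TPM, with the standard error of limma. That scale understates the change of genes at low levels. A difference was called at an adjusted p under 0.05. Genes that the naming rule given with the methods does not pick were named after their values were seen.

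Libraries of 1 KO stage differed from each other by about as much as libraries of different KO stages. The share of tested genes that differed more than 2-fold was 29.4% between the KO leptotene libraries and 28.9% between the KO zygotene libraries. Between a leptotene and a zygotene library it was 30.7% and 22.6% for the same replicate number and 27.5% and 33.0% for different numbers. Implied depth ran from 6.82 to 9.45 gigabases of aligned sequence. Unnamed single-exon transcripts took 22.3% and 24% of the TPM in replicate 1 of KO leptotene and KO zygotene, and 14.4% and 11.9% in replicate 2. The replicate 1 libraries of both KO stages also held the globin transcripts, with summed erythroid markers of 1020 in KO leptotene and 2123 in KO zygotene, against 3.53 and 2.83 in replicate 2.

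The targeted gene was examined first. The files hold no gene named Bend2, and the locus is named Gm15262 (chrX:161287456-161366252, plus strand). Its overlap values were 21.4 and 27.0 in KO leptotene, 29.1 and 40.5 in KO zygotene, 39.0 and 15.1 in WT leptotene, and 28.0 and 16.5 in WT zygotene, so its summed level did not separate the genotypes. The coverage of exons 12 and 13 of its 15-exon transcript, divided by that of exons 11 and 14, was 0.182 and 0.0871 in KO leptotene and 0.153 and 0 in KO zygotene. The same ratio was 0.894 and 0.455 in WT leptotene and 0.984 and 1.45 in WT zygotene, above every KO library. These exons were chosen after the coverage was seen. Between the KO stages the overlap value differed by 0.50 ± 0.45 (SE) with an unadjusted p of 0.302, and the named value by 2.83 ± 1.55 with an unadjusted p of 0.110.

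Few genes passed the test between the KO stages. With named values, 2 of 13102 genes were called (0.0153%), 1 higher in KO zygotene and 1 lower (0.00763% each). With overlap values, 4 of 18757 genes were called (0.0213%), 2 in each direction (0.0107% each). The histone gene Hist1h2bc and the mitochondrial transfer RNA gene mt-Ta passed with named values. With overlap values mt-Ta passed again, together with the histone gene Hist1h2bq, Tagln and Ecm2. None of the meiotic genes examined passed either test.

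**Figure D1:**
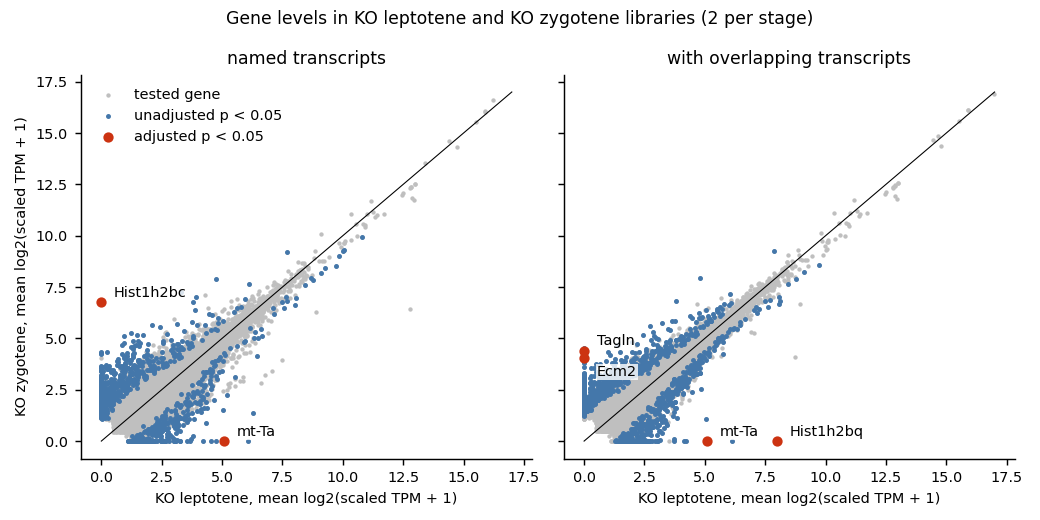
Mean log2(scaled TPM + 1) of each tested gene in the 2 KO leptotene libraries (x axis) and the 2 KO zygotene libraries (y axis), with named transcripts on the left and overlapping transcripts added on the right. The line marks equal levels. Red points are the called genes (2 on the left, 4 on the right), blue points have an unadjusted p under 0.05, and each called gene lies on an axis because its transcripts are listed at 0 in both libraries of 1 stage.

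At an unadjusted p under 0.05, 557 genes (4.25%) were higher and 330 (2.52%) lower in KO zygotene with named values. The libraries of the stages did not overlap for 2130 genes that were higher (16.3%) and 2079 that were lower (15.9%). With overlap values these counts were 734 higher (3.91%) and 427 lower (2.28%) of 18757, and 3040 (16.2%) and 2586 (13.8%) without overlap of the libraries. The median of all log2 fold changes was -0.0085, and their quartiles were -0.36 and 0.39, with a median standard error of 0.57. Of the 557 genes higher with named values, 141 (25.3%) were also higher at that p with overlap values, where they made up 19.2% of the 734. Of the 330 lower genes, 95 (28.8%) were also lower, or 22.3% of the 427. Gene identity in these sets thus depended on how transcripts were given to genes. Both values are given for many of the genes below where they part, and only 1 of them for others.

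Hist1h2bc (ENSMUSG00000018102, chr13:23684199-23692908, plus strand) encodes a replication-dependent histone H2B. Its named value was listed at 0 in both KO leptotene libraries and stood at 121 and 96.2 in KO zygotene, with an adjusted p of 0.00859. In the KO leptotene libraries, unnamed transcripts of 289 and 252 TPM covered the start of the gene, from 23684166 and 23684187 to 23684647. With these added, the gene stood at 303 and 252 in KO leptotene and at 116 and 108 in KO zygotene, and the direction turned to -1.30 ± 0.40 with an adjusted p of 0.613. The overlap values in WT were 103 and 44.3 in leptotene and 31.1 and 18.3 in zygotene, again lower in zygotene. The call of the named value was lost without KO leptotene replicate 1 (adjusted p 0.164) and without replicate 2 (0.0587), and without a KO zygotene library the gene failed the filter.

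Hist1h2bq (chr13:21806612-21810197, minus strand), a second H2B gene, had overlap values of 272 and 240 in KO leptotene and was listed at 0 in both KO zygotene libraries, with an adjusted p of 2.12e-06. It fell by this test, and the call held without each of the 8 libraries in turn (adjusted p 3.19e-05 to 0.00048). In WT it stood at 124 and 119 in leptotene and 55.0 and 50.2 in zygotene. Its transcripts carried no reference name in any library, and no transcript on its strand was assembled at the locus in either KO zygotene library. The neighbouring H2A gene on the other strand, Hist1h2ao, kept overlap values of 93.6 and 114 in KO zygotene, against 151 and 142 in KO leptotene. Histone genes have near-identical copies, so reads may be divided between them and the value of any 1 copy is uncertain.

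The gene mt-Ta encodes the mitochondrial transfer RNA for alanine and lies on the minus strand of the mitochondrial genome from 5018 to 5086. Its sequence, from the GENCODE transcripts, is printed because its length of 69 bases sets it apart from the messenger RNAs of the comparison.

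mt-Ta: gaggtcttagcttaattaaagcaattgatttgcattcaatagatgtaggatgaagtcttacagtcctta

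It stood at 32.0 and 32.9 in KO leptotene and was listed at 0 in both KO zygotene libraries, with an adjusted p of 0.0378 (0.0109 with overlap values). In WT the order was the opposite, with 0 in both leptotene libraries and 32.5 and 28.8 in zygotene. The difference between the genotypes passed the test as well (adjusted p 0.00701). The KO call with named values was lost without any 1 of the 4 WT libraries and without either KO zygotene library (adjusted p 0.0571 to 0.201). With overlap values it held without WT leptotene replicate 1 (0.018) or replicate 2 (0.0161) and was lost without each of the other libraries (0.0748 to 0.202), and with named values no fit without a KO leptotene library could be made because the gene then failed the filter. The adjacent asparagine transfer RNA gene, mt-Tn (5089 to 5159, minus strand), stood at 59.2 and 76.4 in KO leptotene and was listed at 0 in both KO zygotene libraries, but it did not pass (adjusted p 0.515), and in WT leptotene it was 104 in replicate 1 and 0 in replicate 2. In each library both transfer RNA genes were either well above the filter or listed at 0.

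Tagln (chr9:45929619-45936058, minus strand) encodes transgelin, an actin-binding protein of smooth muscle and peritubular myoid cells. It was listed at 0 in both KO leptotene libraries and had overlap values of 25.5 and 16 in KO zygotene (adjusted p 0.0318). Ecm2 (chr13:49504810-49532789, plus strand) encodes an extracellular matrix protein, and it was listed at 0 in KO leptotene and had overlap values of 12.5 and 19.0 in KO zygotene (adjusted p 0.0318). Both rose by this test. Neither call held without any 1 of the 8 libraries, with adjusted p of 0.0748 to 0.612 for Tagln and 0.0936 to 0.441 for Ecm2. In WT the overlap values were also higher in zygotene, at 9.28 and 11 against 22.6 and 45.6 for Tagln, and 7.56 and 9.38 against 17 and 13.7 for Ecm2. With named values Tagln did not pass (adjusted p 0.170). Ecm2 failed the filter, with named values of 0 in both KO leptotene libraries and 9.06 and 0 in KO zygotene replicates 1 and 2. Tagln is among the stromal markers described further on, and Ecm2 is not on that list. Unlike the summed level of those markers, the overlap value of Ecm2 was higher in KO zygotene replicate 2 than in replicate 1. Its named values in these 2 libraries lay the other way.

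**Figure D2:**
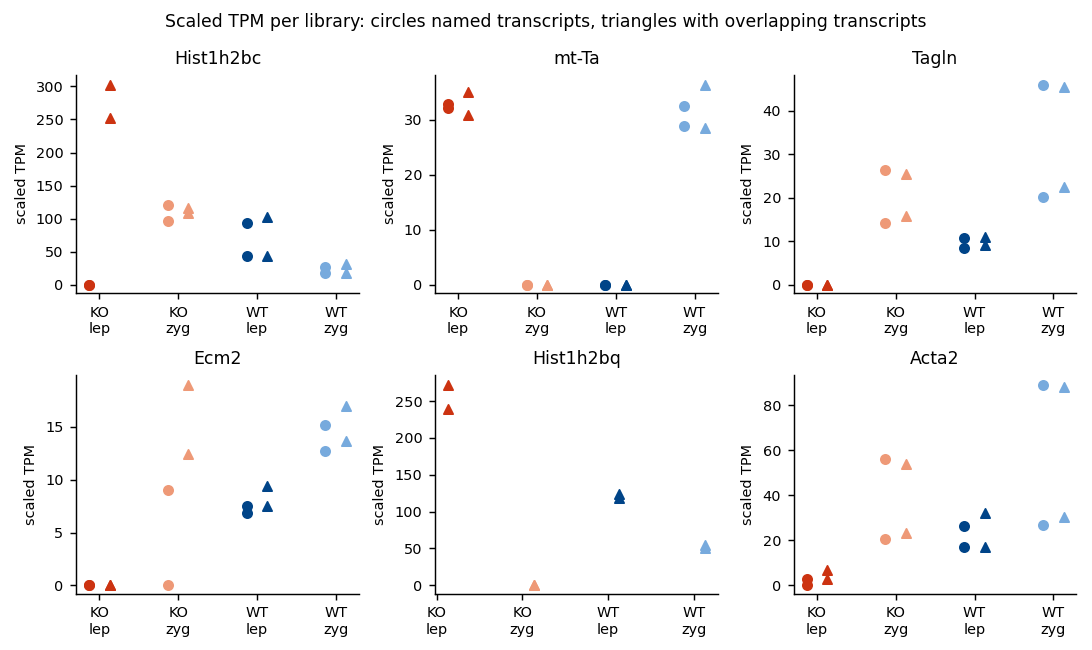
Scaled TPM per library (y axis) of the 5 called genes and of Acta2, by group (x axis), with circles for named transcripts and triangles where overlapping transcripts were added. Hist1h2bc is at 0 in KO leptotene only as circles, Hist1h2bq has overlap values only, and mt-Ta is at 0 in KO zygotene and WT leptotene.

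The replication-dependent histone genes formed the broadest group that stood lower in KO zygotene. Of 68 genes of the histone clusters, 66 were tested with named values. In 43 of these both KO zygotene libraries lay below both KO leptotene libraries, and in 2 above, against 15.9% and 16.3% of all tested genes. The median log2 fold change was -0.56, and 59 estimates were negative (50.7% of all tested genes were). At an unadjusted p under 0.05, 16 genes were lower and 1 higher (Hist1h2bc), against 2.52% and 4.25% of all tested genes. No gene other than Hist1h2bc passed adjustment. Hist1h2bq, which has no named transcript, is not among these genes. With overlap values the median was -0.54, and 41 of 67 genes were lower without overlap and 2 higher, against 13.8% and 16.2% of all genes. The summed named level was 21214 and 18221 in KO leptotene and 12378 and 13840 in KO zygotene, so both zygotene libraries lay below both leptotene libraries. In bulk RNA, fewer cells near S phase and less histone RNA in each cell cannot be told apart, here or in any list below.

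The 16 lower genes encode the core histones H2A (5 genes), H2B (6) and H4 (4) and the linker histone H1 (1), with no H3 gene among them. The 12 tested H3 genes had a median of -0.38. Of these, 7 were lower without overlap of the libraries and 0 higher, against 15.9% and 16.3% of all tested genes. The medians were -0.52 for H1, -0.58 for H2A, -0.69 for H2B and -0.71 for H4. Hist3h2ba (chr11:58948920-58949533), an H2B gene outside the large cluster, stood at 285 and 239 in KO leptotene and 82.6 and 112 in KO zygotene (-1.43 ± 0.35, unadjusted p 0.00448, adjusted p 0.451). Hist1h2aa (chr13:23934462-23934851), the testis-specific H2A gene, stood at 741 and 947 against 322 and 422 (-1.18 ± 0.44, unadjusted p 0.0297). Hist1h1a (chr13:23763666-23764406), an H1 gene, stood at 1851 and 1682 against 950 and 1021 (-0.84 ± 0.33, unadjusted p 0.0364). In each of these 3 genes the 2 KO zygotene libraries lay well below the 2 KO leptotene libraries. Hist1h4b, an H4 gene, was 210 and 173 in KO leptotene and 74.9 and 106 in KO zygotene (unadjusted p 0.022). Hist1h4k, a second H4 gene, was 1353 and 1273 against 762 and 1026 (unadjusted p 0.127). Hist1h3h, an H3 gene, was 364 and 259 against 200 and 240 (-0.48 ± 0.27, unadjusted p 0.111). Both were lower in both zygotene libraries by a smaller estimate than the genes above.

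The other testis-specific variants had smaller estimates. Hist1h1t, the spermatocyte-specific linker histone, was 122 and 160 in KO leptotene and 122 and 107 in KO zygotene (-0.29 ± 0.27, unadjusted p 0.311). Hist1h2ba, the testis-specific H2B, was 1044 and 1153 against 924 and 777 (-0.37 ± 0.34, unadjusted p 0.304). Both estimates were close to their standard error, with overlapping libraries for Hist1h1t and separate ones for Hist1h2ba.

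H2B genes share a promoter element, the octamer bound by OCT1, which is known to serve their S phase transcription. In the 250 bases before the annotated start, the letters ATTTGCAT, read on both strands, were present in 6 of 13 matched H2B genes (46.2%), 7 of 45 other matched histone genes (15.6%) and 526 of 32851 promoters of all genes (1.6%). Those 7 were all H2A genes. The same stretch can be counted for an H2B gene and for a neighbouring H2A gene on the other strand, as for Hist1h2bk and Hist1h2ah. Below are the last 100 bases before the start of 4 H2B genes from RefSeq (GRCm38.p6), all on the plus strand, with the octamer in capitals where it is present. They are shown because genes with these letters were lower in some cases and overlapped between stages in others, and genes without them were lower too. The lowest estimates of the 13 matched genes were of Hist3h2ba (-1.43) and Hist1h2bn (-1.10), both without these letters. Hist1h2bp (-0.84) and Hist1h2bl (-0.69), also without them, were lower at an unadjusted p under 0.05. Only exact matches were searched, so near matches such as atttgaat in the window of Hist1h2bp were not counted. Whether such variants act as the octamer was not tested. The 4 genes printed do not show the balance between genes with and without these letters.

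Hist1h2bk, chr13:22035721-22035820: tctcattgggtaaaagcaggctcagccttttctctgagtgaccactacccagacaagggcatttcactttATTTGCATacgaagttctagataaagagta

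Hist1h2bm, chr13:21721944-21722043: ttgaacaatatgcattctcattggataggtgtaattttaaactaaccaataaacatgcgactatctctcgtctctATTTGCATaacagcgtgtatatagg

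Hist1h2bb, chr13:23746634-23746733: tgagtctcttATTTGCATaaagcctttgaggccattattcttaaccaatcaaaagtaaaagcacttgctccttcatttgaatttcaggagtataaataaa

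Hist1h2bn, chr13:21753976-21754075: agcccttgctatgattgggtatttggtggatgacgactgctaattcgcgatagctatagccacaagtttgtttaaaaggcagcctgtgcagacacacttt

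Hist1h2bk, with the octamer, was 462 and 414 in KO leptotene and 187 and 280 in KO zygotene (-0.93 ± 0.35, unadjusted p 0.0326). Hist1h2bm, with the octamer, was 537 and 545 against 272 and 313 (-0.89 ± 0.31, unadjusted p 0.0224). Hist1h2bn, without these letters in the window, was 264 and 270 against 103 and 148 (-1.10 ± 0.35, unadjusted p 0.0146). These 3 genes stood lower in both KO zygotene libraries. Hist1h2bb, with the octamer, did not follow them, at 88.9 and 288 in KO leptotene and 182 and 202 in KO zygotene, where the libraries overlapped (0.25 ± 0.53, unadjusted p 0.642). In WT the same gene was 224 and 134 in leptotene and 45.7 and 39.2 in zygotene, and the stage differences of the genotypes differed by 2.26 at an unadjusted p of 0.018, without passing adjustment.

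In WT the histone genes were also lower in zygotene, with a median of -1.06 against -0.56 in KO, and with summed levels of 13488 and 9844 in leptotene and 6993 and 4710 in zygotene. Both KO zygotene sums were thus above both WT zygotene sums and close to the higher WT leptotene sum. The difference between the genotypes had a median of 0.44 over the 66 genes, and 6 genes were higher and 1 lower in that difference at an unadjusted p under 0.05, against 1.92% and 1.56% of all tested genes. The exception on the lower side was Hist3h2a, with 639 and 587 in KO leptotene, 305 and 399 in KO zygotene, 66.7 and 59.0 in WT leptotene and 94.9 and 95.8 in WT zygotene. Its overlap value in WT leptotene replicate 2 was 300, and with it the difference had an unadjusted p of 0.671. The KO median lay between -0.43 and -0.74 when each KO library was left out. With overlap values it moved from -0.54 to -0.31 without KO zygotene replicate 1 and to -0.78 without KO zygotene replicate 2.

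**Figure D3:**
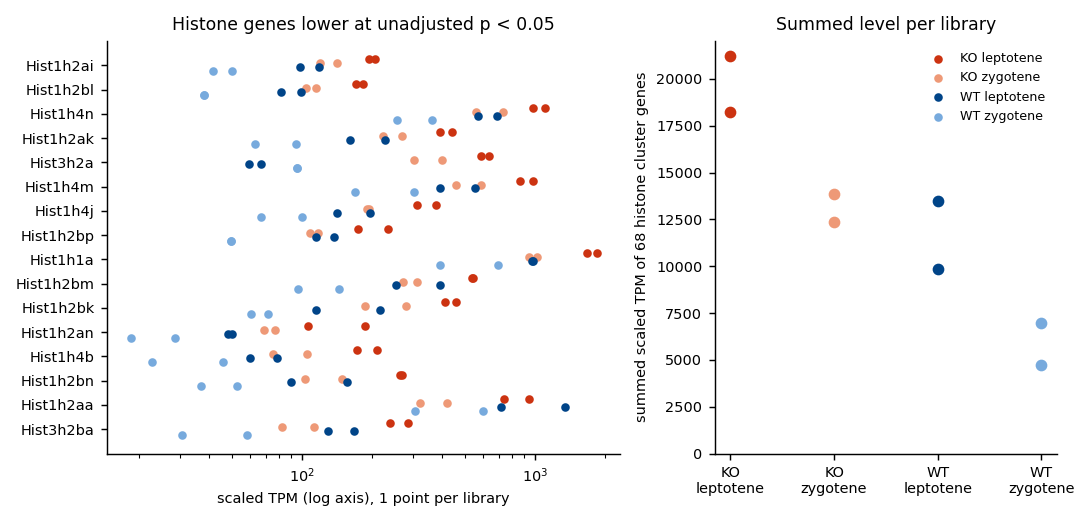
Left, scaled TPM (log axis) per library of the histone genes lower in KO zygotene at an unadjusted p under 0.05. Right, the summed scaled TPM of the 68 histone cluster genes per library, where the KO zygotene libraries at 12378 and 13840 lie below the KO leptotene libraries at 21214 and 18221.

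Other genes of S phase stood lower too, but by less, and none passed. Of 31 replication genes tested, 15 were lower and 2 higher without overlap of the libraries, against 15.9% and 16.3% of all tested genes, with a median of -0.35. With overlap values the counts were 8 and 0, against 13.8% and 16.2% of all genes, and the median was -0.19. Mcm7, a helicase subunit with one of the highest levels on the list, was 84.6 and 77.8 in KO leptotene and 63.6 and 75.3 in KO zygotene. Slbp, whose product binds the stem-loop at the end of histone messages, was 81.4 and 68.3 in KO leptotene and 39.5 and 56.6 in KO zygotene (-0.65 ± 0.29, unadjusted p 0.0624). Mcm6, a subunit of the replicative helicase, was 63.4 and 63.7 against 32.7 and 55.0, and Pcna, the sliding clamp, was 98.7 and 85.4 against 78.3 and 64.9 (-0.36 ± 0.24, unadjusted p 0.167). All 3 were lower in both zygotene libraries, most so in replicate 1 for Slbp and Mcm6. Without KO zygotene replicate 1 the median of the list was -0.11, or -0.03 with overlap values. In WT it was -0.49. The regulator E2f1 was 4.23 and 16.9 in KO leptotene and 0 in both KO zygotene libraries as a named value, but 18.5 and 24.9 against 25.9 and 19.0 as an overlap value, where the libraries of the stages overlapped.

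Transcripts encoded by the mitochondrial genome were lower in 24 of 34 genes without overlap and higher in 1, against 15.9% and 16.3% of all tested genes. The median was -0.44 with named values and -0.41 with overlap values. In the latter, 15 of 34 were lower and 1 higher without overlap, against 13.8% and 16.2% of all genes. With overlap values the median moved to -0.15 without KO zygotene replicate 1, to -0.26 without KO leptotene replicate 2, to -0.64 without KO leptotene replicate 1 and to -0.68 without KO zygotene replicate 2. Their summed level was 73300 and 81065 in KO leptotene and 53317 and 61654 in KO zygotene. In WT it was 74646 and 34745 in leptotene and 44658 and 47624 in zygotene, where the leptotene libraries lay on either side of the zygotene ones. The ribosomal RNA gene mt-Rnr1 was 26 and 17.2 against 10.5 and 7.94 (-1.13 ± 0.41, unadjusted p 0.0263), and its WT values were lower in zygotene as well, at 69.0 and 82.2 against 20.7 and 41.9. Among messenger RNAs, the respiratory chain gene mt-Co1 was 25742 and 29168 against 18654 and 22154, a difference of -0.43 ± 0.69.

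The meiotic genes of known stage showed no stable stage difference in KO cells. For 10 of them, the libraries of the stages did not overlap for 4 with named values and for 1 with overlap values, and for 0 in the same direction both ways. Of all tested genes, 16.3% were higher and 15.9% lower without overlap with named values, and 16.2% and 13.8% with overlap values. Stra8, the inducer of meiotic entry, was 107 and 69.0 in KO leptotene and 84.3 and 99.6 in KO zygotene (0.09 ± 0.41, unadjusted p 0.832). Rec8, the meiotic kleisin of cohesin, was 21.9 and 20.3 against 16.4 and 26.3. Their libraries overlapped. Sycp3, an axis protein, was 74.1 and 97.4 against 48.9 and 92.3 (-0.33 ± 0.41, unadjusted p 0.44), and Sycp1, the transverse filament of the synaptonemal complex, was 44.6 and 40.0 against 45.0 and 65.0. Mybl1, the transcription factor of pachytene programmes, was 8.29 and 4.89 against 8.92 and 4.89. In WT the named values of Rec8, Sycp3, Sycp1 and Mybl1 overlapped between stages as well. Stra8 was lower in WT zygotene, at 57.5 and 57.9 against 39.3 and 17.3 (-1.11 ± 0.41, unadjusted p 0.0283). Its difference between the genotypes was 1.20 at an unadjusted p of 0.0739, and neither passed adjustment.

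Among the genes of the axis and the synaptonemal complex, Syce1 (chr7:140777229-140787852, minus strand), a central element protein, had the clearest difference. It stood at 51.5 and 44.0 in KO leptotene and 26.2 and 21.9 in KO zygotene, with both zygotene libraries well below (-0.96 ± 0.25, unadjusted p 0.00634, adjusted p 0.472). The overlap values were 49.7 and 55.4 against 30.3 and 33.0 (-0.71 ± 0.24, unadjusted p 0.0154). In WT the gene was higher throughout and also lower in zygotene, at 98.8 and 76.5 against 66.8 and 65.9, and the difference between the genotypes was -0.58 at an unadjusted p of 0.15. The other central element genes had overlapping or higher libraries in KO zygotene. Syce2 was 19.6 and 17.2 against 21.2 and 26, and Tex12 was 9.69 and 16.1 against 9.57 and 13. Hormad1, an axis protein that recruits the break machinery, was 19.2 and 25.7 in KO leptotene and 0 in both KO zygotene libraries as a named value (unadjusted p 0.0122), but 27.8 and 27.5 against 24.4 and 37.5 as an overlap value. Of 13 genes of this list tested, 2 were higher and 3 lower without overlap, against 16.3% and 15.9% of all tested genes. The median was -0.33 (-0.06 over 16 genes with overlap values).

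Of the genes that act on double-strand breaks, Spo11 was 1.91 and 3.27 in KO leptotene and 8.54 and 5.55 in KO zygotene as a named value (1.17 ± 0.70, unadjusted p 0.136). Its overlap values, 12.4 and 13.5 against 16.7 and 12.8, overlapped between stages. Prdm9, which marks the sites of breaks, was 11.4 and 6.90 against 11.5 and 5.33. Gm960, the TOPOVIBL partner of SPO11, was measured only with overlap values, at 2.41 and 0.762 in KO leptotene and 17.6 and 12.5 in KO zygotene (2.69 ± 0.48, unadjusted p 0.000396, adjusted p 0.38). In WT it was 7.11 and 7.78 against 6.65 and 11.1. Mei4, a partner of the break machinery, lay the other way, with overlap values of 8.80 and 11.4 against 2.87 and 4.04 (-1.32 ± 0.44, unadjusted p 0.0157). Of 8 genes tested with named values, 1 was higher and 1 lower without overlap, against 16.3% and 15.9% of all tested genes. With named values 0 of them had an unadjusted p under 0.05. Ewsr1 and Zcwpw1, the list members with the highest levels, were 124 and 60.6 against 156 and 36.2 and 78.0 and 126 against 43.6 and 88.2, both with overlapping libraries. The median of the list was -0.23 in both assignments and depended on single libraries, at 0.23 without KO zygotene replicate 2, -0.02 without KO leptotene replicate 1 and -0.12 without KO zygotene replicate 1, and with overlap values at -0.04 without KO zygotene replicate 1 and -0.15 without KO leptotene replicate 2.

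Recombination genes had a median of -0.25 in both assignments, with 4 higher and 11 lower of 34 without overlap (2 and 12 of 38 with overlap values), against 16.3% and 15.9% (16.2% and 13.8%) of all genes. The median moved to -0.02 without KO zygotene replicate 1 and to -0.54 without replicate 2, and with overlap values to -0.06 and -0.38, and to -0.16 without KO leptotene replicate 2. Swi5, a recombinase accessory factor with one of the highest levels on the list, was 73.0 and 61.3 in KO leptotene and 90.7 and 89.3 in KO zygotene (0.42 ± 0.26, unadjusted p 0.147), with both zygotene libraries above. Rpa2, a subunit of the single-strand binding complex, was 63.9 and 46.4 against 45.5 and 53.6, with overlapping libraries. Dmc1, the meiotic recombinase, was 19.1 and 14.9 in KO leptotene and 9.36 and 18.8 in KO zygotene (-0.32 ± 0.40, unadjusted p 0.452), and with overlap values 25.3 and 21.1 against 24.5 and 22.3. In WT its overlap values were 29.6 and 27.4 in leptotene and 11.8 and 6.79 in zygotene, with both zygotene libraries lower. The stage differences of the genotypes differed by 1.58 with overlap values at an unadjusted p of 0.0063, and did not pass adjustment. Rnf212, a crossover factor, was 9.22 and 15.9 against 4.22 and 4.70 (-1.27 ± 0.55, unadjusted p 0.054) and in WT 0.550 and 2.00 against 3.25 and 2.47. Its difference between the genotypes was -2.10 at an unadjusted p of 0.0299, or -2.79 with overlap values at an unadjusted p of 0.0036, neither past adjustment. Exo1 and Fignl1 were higher as named values, at 2.37 and 3.55 against 10.7 and 9.15 for Exo1. Its overlap values, 25.1 and 25.9 against 14.4 and 21, lay the other way.

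Genes of chromosome ends and of the sex body gave mixed values. Majin, which anchors telomeres to the nuclear envelope, was 9.48 and 5.91 in KO leptotene and 0 and 0.721 in KO zygotene (unadjusted p 0.00181), and with overlap values 10.3 and 14.5 against 0.870 and 9.96 (unadjusted p 0.084). Its list of 13 had a median of -0.14, with 2 higher and 2 lower without overlap, against 16.3% and 15.9% of all tested genes. H2afx, the histone variant phosphorylated at breaks and over the sex chromosomes, was 975 and 1070 against 506 and 752 (-0.73 ± 0.31, unadjusted p 0.0484). Its values were lower in both zygotene libraries, like those of the S phase histones. The list of sex-chromosome silencing and checkpoint genes had a median of -0.32 with named values and of 0.10 with overlap values, so its sign depended on the assignment. Tested X-linked genes numbered 418, with 86 higher and 49 lower without overlap, against 16.3% and 15.9% of all tested genes, and a median of 0.09. Taf7l, a germ-cell subunit of the general transcription factor TFIID, was 142 and 86.0 against 110 and 110.

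Genes of meiotic entry had a median of 0.09 over 11 genes (-0.12 with overlap values). Rara, a retinoic acid receptor, was 5.44 and 4.34 in KO leptotene and 9.77 and 13 in KO zygotene (unadjusted p 0.0335), and Dazl, a germ-cell RNA-binding protein, was 96.7 and 75.4 against 80.1 and 114. Markers of undifferentiated and of differentiating spermatogonia had medians of -0.08 and -0.19. Among them Zbtb16, a factor of undifferentiated cells, was 27.7 and 37.0 against 31.2 and 59.0, with overlapping libraries. Of 12 markers of differentiating cells, 1 was higher and 2 lower without overlap, against 16.3% and 15.9% of all tested genes. The higher one, Uchl1, was 80.4 and 68.7 against 179 and 101 (0.85 ± 0.38, unadjusted p 0.0609). In WT it was 19.0 and 29.8 against 60.9 and 94.0 (unadjusted p 0.00352), and neither difference passed adjustment. The named value of Upp1 was 5.10 and 6.50 against 0 and 0.115 (unadjusted p 0.000202, adjusted p 0.247), but its overlap values, 14.5 and 7.44 against 17.6 and 14.1, overlapped.

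Cell-cycle genes had a median of 0.14 over 36 tested (0.07 over 39 with overlap values), with 21 estimates higher and 15 lower. The libraries stood apart for 8 higher and 2 lower genes, against 16.3% and 15.9% of all tested genes, and for 10 and 1 with overlap values, against 16.2% and 13.8%. Cdc20 (chr4:118432901-118437352), an activator of the anaphase-promoting complex, was 61.3 and 71.7 in KO leptotene and 106 and 92.9 in KO zygotene (0.58 ± 0.25, unadjusted p 0.052), and with overlap values 59.2 and 76.5 against 102 and 104 (unadjusted p 0.0229). In WT it was 51.9 and 68.5 against 59.2 and 64.9, and the difference between the genotypes had an unadjusted p of 0.18. Ccnb2, a B-type cyclin, had overlap values of 12.6 and 17.7 against 25.8 and 22.9 (unadjusted p 0.0403). Both zygotene libraries were above both leptotene libraries for each gene. The proliferation genes Top2a (82.6 and 143 against 109 and 133) and Mki67 (93.5 and 122 against 102 and 82.2) overlapped.

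Transcripts of later germ cells were present in all KO libraries at levels below WT. The pachytene markers summed to overlap values of 836 and 664 in KO leptotene and 1002 and 633 in KO zygotene, against 2160 and 2564 in WT leptotene and 1962 and 2474 in WT zygotene. Their median between KO stages was -0.03 over 26 genes (0.02 over 30 with overlap values). Kctd19 (chr8:105382807-105413502, minus strand), a pachytene protein, was 12.3 and 12 in KO leptotene and 35.9 and 20.0 in KO zygotene (1.08 ± 0.35, unadjusted p 0.0165), and its WT values, 42.6 and 37.6 against 37.1 and 51.2, were all higher than in KO. Spata16, a spermatid protein, had overlap values of 5.96 and 4.05 against 18.2 and 9.22 (unadjusted p 0.00953), and Psma8, the subunit of the spermatogenic proteasome, 7.44 and 6.86 against 12.8 and 13.2 (unadjusted p 0.0293). These 3 genes were higher in both KO zygotene libraries, without passing adjustment. Hspa2, the testis heat shock protein, was 94.1 and 66.8 against 157 and 81.6, where the libraries overlapped.

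Round spermatid genes followed the replicate number rather than the stage within KO. Prm2, a protamine, was 538 and 268 in KO leptotene and 530 and 209 in KO zygotene, and Tnp2, a transition protein, was 491 and 283 against 569 and 223. In both genes replicate 1 was high and replicate 2 low at each stage. The list had a median of -0.08 over 24 genes, with 0 higher and 1 lower without overlap, against 16.3% and 15.9% of all tested genes. The piRNA pathway had a median of 0.15 (-0.03 with overlap values), and its member Tdrd7, a Tudor protein of the chromatoid body, was 17.9 and 16.3 against 33.5 and 25.2 (unadjusted p 0.0357).

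LSD1 with CoREST, NuRD and SIN3 are repressor complexes built around histone deacetylases. None of their 25 genes tested had an unadjusted p under 0.05. Without overlap, 3 were higher and 4 lower, against 16.3% and 15.9% of all tested genes, and the median was 0.06. With overlap values the median was 0.08, with 7 higher and 1 lower of 26, against 16.2% and 13.8% of all genes. Kdm1a, which encodes LSD1, was 59.1 and 53.2 in KO leptotene and 49.8 and 52.2 in KO zygotene. Sin3b was 112 and 88.0 against 122 and 117. Chd4, the NuRD remodeller, had overlap values of 115 and 129 against 117 and 137. The Chd4 libraries overlapped, and those of Kdm1a and Sin3b stood apart by small margins (-0.14 ± 0.26 and 0.26 ± 0.26). The list of p53 and apoptosis genes had a median of -0.31 with named values and 0.18 with overlap values, and Bax, a pro-apoptotic target, was 58.6 and 43.5 against 56.0 and 48.4. Cytosolic ribosomal protein genes had a median of 0.06 over 85 genes. Over both assignments and the fits without each KO library, the medians of 7 of 26 lists kept their sign, namely the histone, S phase, mitochondrial and recombination lists on the lower side and the cell-cycle, stromal and stress lists on the higher side, while those of the other 19 took both signs.

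**Figure D4:**
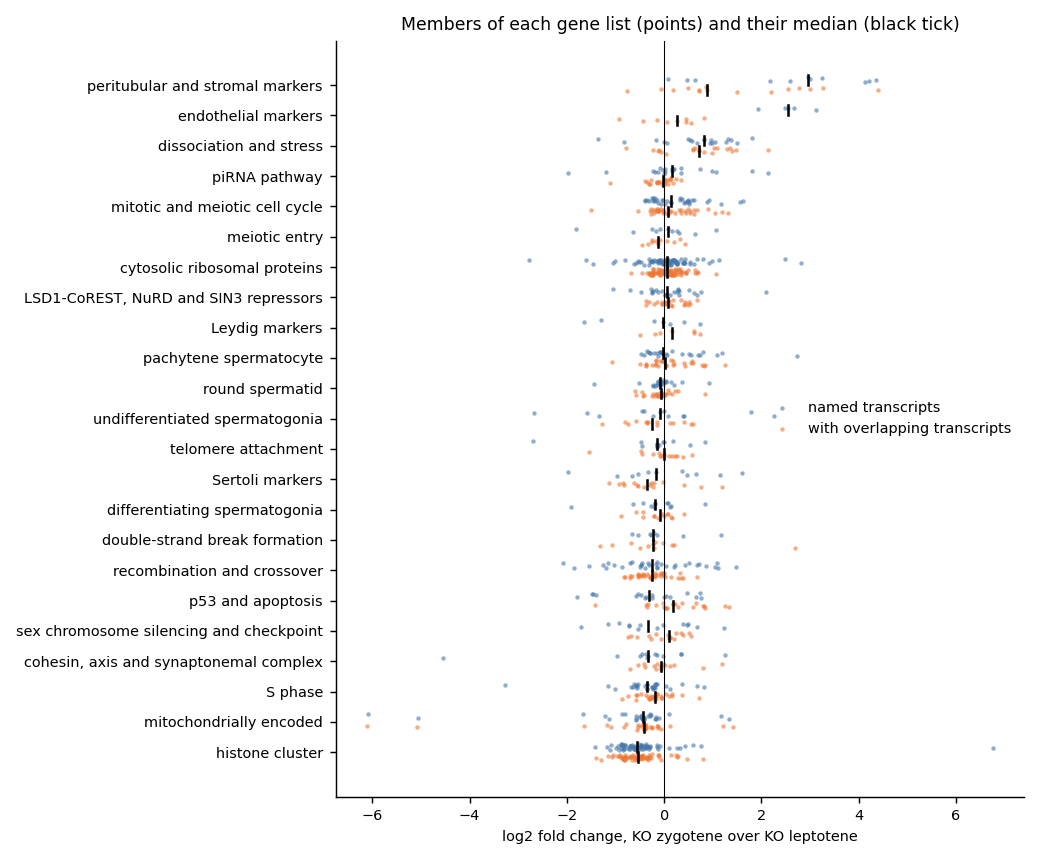
Log2 fold change of KO zygotene over KO leptotene (x axis) for each member of each gene list (rows), with named transcripts in blue, overlapping transcripts added in orange and the median as a black tick. Histone and mitochondrial medians lie near -0.5 in both, stromal markers lie on the right, and members listed at 0 in a stage are placed by the pseudocount.

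Stromal cell markers were, among the KO libraries, highest in KO zygotene replicate 1. Of 16 peritubular and stromal markers, 11 were tested with named values. Of these, 8 were higher without overlap and 0 lower, against 16.3% and 15.9% of all tested genes. The median was 2.96, and 4 of the 16 markers were listed at 0 in both KO leptotene libraries. Tagln, Pdgfra and Tcf21 were under 1 in both KO leptotene libraries and passed the filter only through KO zygotene, where they were high. The named count was therefore partly fixed by the filter. With overlap values 8 of 15 were higher and 0 lower without overlap, against 16.2% and 13.8% of all genes. The median was then 0.89, and the sums were 193 and 146 in KO leptotene and 840 and 246 in KO zygotene. Both zygotene sums exceeded the leptotene sums, and replicate 1 far more than replicate 2. Without KO zygotene replicate 1 the median was 1.53 (1.01 with overlap values), and without replicate 2 it was 4.01 (1.86). In WT the sums were 518 and 988 in leptotene and 1217 and 1619 in zygotene, above every KO leptotene library.

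The values of smooth muscle and fibroblast genes show which members were high. Acta2 (chr19:34241090-34255590, minus strand), smooth muscle actin, was 0 and 2.58 in KO leptotene and 56.1 and 20.7 in KO zygotene, and with overlap values 6.64 and 2.76 against 53.9 and 23.2 (2.77 ± 0.62, unadjusted p 0.00175). Dcn (chr10:97479609-97518143), the matrix proteoglycan decorin, was 11.4 and 14.5 against 289 and 39.1 (2.96 ± 0.86, unadjusted p 0.0102). Myh11, smooth muscle myosin, had overlap values of 7.14 and 7.60 against 23.8 and 21.7 (1.5 ± 0.46, unadjusted p 0.0109). All were higher in both KO zygotene libraries, and Myh11 about equally in both. Tagln, called above, is a further member. Gsn, which encodes the actin-severing protein gelsolin, had overlap values of 20.6 and 34.3 against 711 and 85.7, and Cebpd, a transcription factor, 0.619 and 1.45 against 24 and 15 (3.33 ± 0.39, adjusted p 0.077). The named values of Cebpd were 0.641 and 1.36 against 24.9 and 1.96 (unadjusted p 0.0519).

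The genes with the largest differences with named values, chosen by rule, were of 2 kinds. Besides Tagln, the higher side held stromal genes that kept their direction when unnamed transcripts were added. Sparcl1, a matrix protein, had overlap values of 8.08 and 4.66 in KO leptotene and 86.1 and 17.1 in KO zygotene (unadjusted p 0.00541), and Id3, an inhibitor of helix-loop-helix factors, 2.93 and 2.92 against 52.9 and 13.9 (unadjusted p 0.00431). Adamts5, a matrix protease, had 9.11 and 9.96 against 44.8 and 12.8 (unadjusted p 0.035). In all 3 genes replicate 1 of KO zygotene was far above replicate 2. Pdgfra, the receptor of stromal cells, was 0.212 and 0.118 against 47.7 and 7.48 as a named value, but its overlap values, 11.3 and 10.8 against 47.6 and 8.82, overlapped.

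The other kind were genes expressed in many cell types whose named transcripts were absent from 1 stage or low there. Nipbl, the cohesin loader, was listed at 0 in KO leptotene and at 15 and 23.2 in KO zygotene (adjusted p 0.0678), but its overlap values were 34.0 and 44.2 against 30.3 and 34.2. Vcp, an unfolding ATPase, was 13.1 and 5.76 against 196 and 121, with overlap values of 180 and 95.3 against 188 and 153. On the lower side Prpf6, a splicing factor, was 38.0 and 29.2 against 0 in both, with overlap values of 36.6 and 37.3 against 60.5 and 54.5. Eif3d, a translation initiation factor, was 72.0 and 81.2 against 4.87 and 0.167, with overlap values of 111 and 93.3 against 101 and 137. In each of these genes the stage difference was smaller or turned when unnamed transcripts at the locus were added. The same held on the lower side for Agt, Erbin, Zfp280b, Magi1, Incenp, Wdr70 and Ofd1, whose overlap estimates lay between -0.78 (Magi1) and 0.66 (Ofd1), none with an unadjusted p under 0.05. On the higher side Vprbp (-0.04), Six5 (-0.65) and Gmpr2 (0.18) had no unadjusted p under 0.05 with overlap values either. Lamc3, a laminin chain, Lrp1, an endocytic receptor, and Dpep1, a membrane dipeptidase, kept overlap estimates of 1.60, 1.09 and 1.66. With overlap values the libraries of the stages overlapped for each of them, and none had an unadjusted p under 0.05. In each, KO zygotene replicate 1 was far above replicate 2. Mir6941, a microRNA gene, was 6.25 and 22.5 against 0.155 and 0.000728, and its overlap values hardly differed from these (-3.63 ± 1.08, unadjusted p 0.00914). Moap1, a modulator of apoptosis, kept its direction, with overlap values of 19.7 and 15.8 in KO leptotene and 0 in both KO zygotene libraries (unadjusted p 0.0343), but its overlap values were 0 and 20.7 in WT leptotene and 30.4 and 0 in WT zygotene. Of the 30 genes named by the rule, 18 were listed at 0 in both libraries of the lower stage, 18 kept their direction with overlap values, and 9 then had an unadjusted p under 0.05.

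The rule applied to overlap values picked further genes at an unadjusted p under 0.05, none of which passed adjustment. On the higher side Pi16, a peptidase inhibitor of fibroblasts, was listed at 0 in KO leptotene and at 10.2 and 7.21 in KO zygotene. Adamts12, a matrix protease, was listed at 0 against 23.6 and 6.68, and Mrvi1, a regulator of smooth muscle calcium release, at 0 against 16.7 and 7.41. Fgl2, a fibrinogen-like protein, was 1.11 and 2.17 against 60.7 and 9.66 (3.31 ± 0.72, unadjusted p 0.0015), and Ly6a, a surface protein also known as Sca-1, 1.14 and 0.178 against 29.0 and 5.19. Cyp27a1, Tcf21, Fmo1, Rarres2, Abca8b and Clca3a1 completed the higher side, with estimates of 3.14 (Clca3a1) to 3.32 (Fmo1). In each of these genes KO zygotene replicate 1 was the highest KO library.

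On the lower side Anapc10, a subunit of the anaphase-promoting complex, had overlap values of 9.19 and 5.94 in KO leptotene and was listed at 0 in both KO zygotene libraries. Its named values were 0 in all 4 KO libraries. Hes3, a helix-loop-helix repressor, was 5.64 and 5.50 against 0 in both, and Ache, acetylcholinesterase, 5.72 and 7.79 against 0 in both. Mcrip1 was 29.5 and 34.8 against 3.33 and 0 (-3.99 ± 0.94, unadjusted p 0.00245). D8Ertd738e was 14.1 and 12.7 against 0.587 and 1.96 (-2.73 ± 0.51, unadjusted p 0.000555), with named values close to these. Tmprss9, Togaram2, Tbc1d10c and Epn3 completed the lower side, with estimates of -2.81 (Tmprss9) to -2.66 (Epn3).

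All 5 endothelial markers tested with named values were higher without overlap, against 16.3% of all tested genes. At an unadjusted p under 0.05, 3 were higher, against 4.25% of all tested genes. The median was 2.55, with sums of 1.68 and 12.2 in KO leptotene and 78.4 and 31.7 in KO zygotene. No endothelial marker reached a TPM of 1 in KO leptotene replicate 1. Each thus passed the filter through at least 1 KO zygotene library, where the markers were high. The count of higher markers was therefore partly fixed by the filter. With overlap values 2 of 9 were higher without overlap, against 16.2% of all genes. The median was then 0.26, and the sums, 118 and 94.6 against 138 and 88.7, overlapped. Vwf, the von Willebrand factor, was 0.778 and 1.03 against 23.5 and 10.1 as a named value and 18.7 and 16.1 against 24.9 and 13.3 as an overlap value. Sertoli markers had a median of -0.17, with 5 of 11 lower without overlap and 2 higher, and with overlap values -0.36, with 7 of 16 lower and 2 higher, against 15.9% and 13.8% of all genes for the lower side. Without KO zygotene replicate 1 the named median was 0.22. Clu, clusterin, was 137 and 105 against 75.2 and 89.2. Vim, the vimentin shared by Sertoli and stromal cells, had overlap values of 23.9 and 23.5 against 71.4 and 42.8 (unadjusted p 0.02). Macrophage markers summed to overlap values of 63.2 and 58.3 against 96.7 and 53.3, and 2 of 16 could be tested with named values, with 7 listed at 0 in both KO leptotene libraries and 10 in both KO zygotene libraries. The Leydig median was -0.02 over 7 genes, and Insl3, a Leydig hormone, was 117 and 55.8 against 146 and 52.4. One of the 5 lymphocyte markers could be tested. The part of these cells in the stage differences was not tested.

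**Figure D5:**
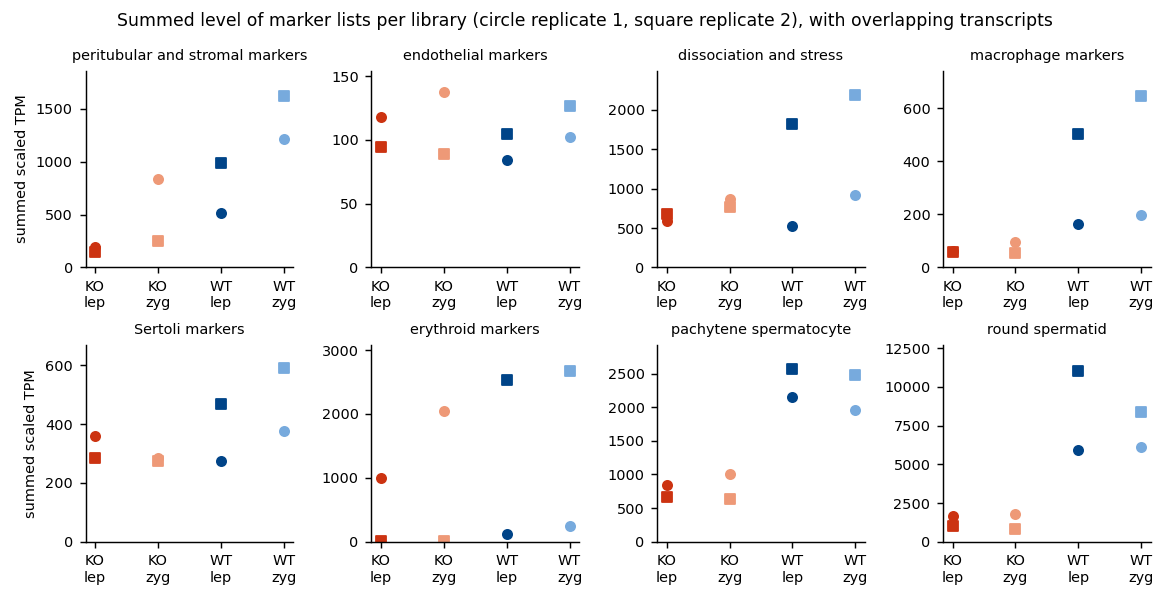
Summed scaled TPM (y axis, from 0) of marker lists per library, with overlapping transcripts, by group (x axis), with a circle for replicate 1 and a square for replicate 2. The stromal sums are 193 and 146 in KO leptotene and 840 and 246 in KO zygotene, and the erythroid sums follow the replicate number within KO.

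Immediate early genes are known to be induced by tissue dissociation. Of 20 dissociation and stress genes, 11 were higher and 1 lower without overlap, against 16.3% and 15.9% of all tested genes, with a median of 0.82 (0.72 with overlap values). None had an unadjusted p under 0.05 in either assignment. Jund, with one of the highest levels on the list, had an estimate on the lower side. It was 230 and 213 in KO leptotene and 70.1 and 221 in KO zygotene, where the libraries overlapped (-0.82 ± 1.63, unadjusted p 0.629). Fos was 34.0 and 32.4 in KO leptotene and 118 and 60.6 in KO zygotene (1.32 ± 0.84, unadjusted p 0.159). Junb was 27.3 and 34.6 against 118 and 55.4. Among the KO libraries Fos and Junb were highest in KO zygotene replicate 1, which also had the highest stromal and globin sums of the KO libraries. Without that library the median of the list was 0.34. The WT values of Fos and Junb ran higher and wider, as for Fos at 55.5 and 254 in leptotene and 93.5 and 383 in zygotene.

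The same step in WT gave 0 called genes with named values in limma, with a lowest adjusted p of 0.0849 and with 475 genes (3.63%) at an unadjusted p under 0.05. With overlap values it gave 2 (0.0107%), Stox1 and mt-Ta. Across the 13102 genes the KO and WT stage differences had a Pearson correlation of 0.173 and a Spearman correlation of 0.179, where genes are not independent replicates. The test of the difference between genotypes called 2 genes (0.0153%), Hist1h2bc and mt-Ta, with 456 genes (3.48%) at an unadjusted p under 0.05. With overlap values it called 4 (0.0213%), namely mt-Ta, Hist1h2bq, Slc25a47 and Stox1, all with a lower stage difference in KO. Slc25a47, a mitochondrial carrier, had overlap values of 16.8 and 8.54 in KO leptotene and 0 in both KO zygotene libraries, and 0 in both WT leptotene libraries and 21.5 and 9.71 in WT zygotene (adjusted p 0.0394). Stox1, a winged-helix protein, was 11.8 and 10.3 in KO leptotene, 1.99 and 6.03 in KO zygotene, 0 in both WT leptotene libraries, and 52.3 and 34.8 in WT zygotene (adjusted p 0.0394). Each of these 4 genes was listed at 0 in both libraries of at least 1 group.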

How the data were processed

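RNA was extracted with TRIzol and libraries were made with a directional kit, per the labels' protocols. The submitters' processing notes name HISAT2, StringTie, DESeq2 and the mm10 genome. The deposited files are StringTie 2.1.2 assemblies, 1 per library, guided by Ensembl release 89 (GRCm38), without a strand option and with unannotated transcripts allowed, per the file headers. Each transcript has the coverage, FPKM and TPM that the authors deposited, and no read counts were used.

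TPM of transcripts with a reference gene name was summed per gene and library. Sums were scaled between libraries by median of ratios. Genes that reached a TPM of 1 in 2 or more KO libraries were tested on log2(scaled TPM + 1) with limma 3.58.1 in R 4.3.3, with 4 group means over 8 libraries (4 residual and 3.27 prior degrees of freedom), an intensity trend and Benjamini-Hochberg adjustment. Assembly without strand means that overlapping and antisense genes may not be told apart. A second assignment, added after the data were seen, gave each unnamed transcript to the GENCODE M21 gene covering at least 50% of its exonic length on the same strand (bedtools 2.31.1). It tested 18757 of 33860 genes. The code was tested on simulated data.

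The genes and lists were chosen with earlier results of these data known. Genes were picked for naming as the 15 largest log2 fold changes in each direction among called genes whose libraries do not overlap, filled with genes at an unadjusted p under 0.05 and a mean of at least 5 in the higher stage. Further picks were up to 5 genes each way of the genotype difference, filled to 3, the 2 highest members of each list where none was called, 10 meiotic genes and Gm15262. Not all picks from the lists and from the genotype difference are printed. Alternatives were pseudocounts of 0.1 and 5, a TPM minimum of 5 or none, other scalings, FPKM, values per assembled locus, no trend, the KO libraries alone, a replicate block and leaving out each library. The design text speaks of more replications than the 2 libraries per group analysed here. Some genes of the lists are counted but not reported by name here.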

Additional observations from a re-analysis of the deposited data

Results flagged for a closer look

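The stage difference of Hist1h2bc differed between the genotypes by the test of that difference in limma. It was 8.23 higher in KO than in WT on the log2(scaled TPM + 1) scale (adjusted p 0.0124), a fitted value that depends on the pseudocount since the named value is listed at 0 in both KO leptotene libraries. With unnamed transcripts at the locus added, the difference was 0.16.

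The stage difference of mt-Ta also differed between the genotypes by that test, by -10.05 on the same scale (adjusted p 0.00701). This fitted value depends on the pseudocount as well, since the gene is listed at 0 in both KO zygotene and both WT leptotene libraries. With overlap values the adjusted p was 0.000655.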

How the results depend on the processing

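The KO comparison called 2 genes. The count was 5 with a pseudocount of 0.1, 0 without the filter on low values, 13 with values per assembled locus (9 higher, 4 lower), 0 with the KO libraries alone, 4 with overlap values, 1 with the share of unnamed single-exon transcripts as a covariate, and 0 to 3 without each library. The WT comparison called 0, and 3 per locus, 1 without the trend, 2 with overlap values, 2 with overlap values and the covariate, and 0 to 1 without each library. The genotype difference called 2, and 1 without the filter, 8 per locus, 4 with overlap values and 0 to 3 without each library. The replicate block called 1 gene in KO (Hist1h2bc, adjusted p 0.0152, with mt-Ta at 0.192), 0 in WT and 2 in the difference. The labels do not say what a replicate number marks. Same-numbered libraries of the 2 stages deviated from their group means with correlations over genes of 0.083 in KO and 0.20 in WT (0.13 and 0.22 with overlap values), and with 2 numbers per group they were treated as sharing only a number. The overlap values and the covariate were chosen after the data were seen. Directions reversed with overlap values for Hist1h2bc (-1.30), Nipbl (-0.26), Vprbp (-0.041), Six5 (-0.65), Prpf6 (0.62), Eif3d (0.21), Agt (0.23), Hormad1 (0.13), Incenp (0.26), E2f1 (0.044), Wdr70 (0.13), Ofd1 (0.66) and Nsa2 (-0.89), and per locus for Eif3d (0.23) and Magi1 (0.024). The unnamed transcripts added at these loci make the overlap values; other causes were not tested. Read depth per gene is unknown, so no limit of detection is given for a gene listed at 0.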
